A study of Mus musculus with 24 samples.

Results

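The 6 genes Slc25a17, Mgat3, Rps19bp1, Sun2, Mcat and Pmm1 of mouse chromosome 15 were followed in embryonic cortical neurons with and without the transcription factor gene Atf4, which lies among them. They were chosen because they lie near Atf4 and because their signal differed between the genotypes in these same arrays, so the genotype differences given here describe them and carry no test. The 6 genes have 7 probes, since Mcat has 2, out of 15946 genes and 23983 probes named or listed on the array. All 7 probes passed the filter on dim probes, which kept 11852 probes of 8755 genes.

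The study read total RNA on 24 Illumina Mouse Ref-8 bead arrays, 1 sample per array. The groups were 8 wild-type and 8 Atf4 knockout samples of untreated neurons, and 4 wild-type and 4 knockout samples of neurons exposed to homocysteate (HCA), a homolog of glutamate used to impose oxidative stress. Chip 1 held 4 untreated samples of each genotype and no HCA sample, and chips 2 and 3 each held 2 samples of all 4 groups. The strain and breeding of the mice, the part of Atf4 that was disrupted, the HCA dose and the length of exposure were not given in the sources used here. The labels leave it unsaid whether replicates were separate cultures or animals, and p-values therefore cover the spread among these samples, which may be technical.

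Atf4 encodes a basic leucine zipper activator that cells translate under stress and that switches on genes of amino acid uptake, amino acid synthesis and redox defence. Genes that lie close together on a chromosome tend to be inherited together, and DNA around a targeted gene is usually passed on with it. The neighbours followed here have unrelated products: a peroxisomal carrier, a mitochondrial enzyme, a pair of enzymes of sugar metabolism and glycosylation, a protein of the nuclear envelope and a small protein that binds a ribosomal protein. The presence of Atf4 and any other difference in the DNA around it cannot be told apart in a comparison of these genotypes, and neither can the amount of an RNA and a difference in its sequence under a probe.

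In the RefSeq order of protein-coding genes, Sun2 lies 13 genes and Mgat3 2 genes before Atf4. Rps19bp1 is the gene next to Atf4 on the other side. Further along, Slc25a17 is 11, Pmm1 27 and Mcat 66 genes away. The promoters of the adjacent gene, whose signal was lower in the knockout, and of Slc25a17, whose signal was higher, are shown because the signals of these genes differed in opposite directions on the same side of Atf4. Each is a window of 300 bases around the annotated start, most of them before it, read 5′ to 3′ on the gene's strand (minus for both) from RefSeq, build GRCm38.p6, at chr15:80264257-80264556 for Rps19bp1 and chr15:81360716-81361015 for Slc25a17.
Rps19bp1: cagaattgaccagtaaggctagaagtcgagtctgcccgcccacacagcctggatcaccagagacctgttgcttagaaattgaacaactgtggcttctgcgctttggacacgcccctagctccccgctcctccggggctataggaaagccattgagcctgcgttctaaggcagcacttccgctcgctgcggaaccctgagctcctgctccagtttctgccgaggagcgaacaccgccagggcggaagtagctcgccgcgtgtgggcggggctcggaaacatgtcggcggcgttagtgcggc
Slc25a17: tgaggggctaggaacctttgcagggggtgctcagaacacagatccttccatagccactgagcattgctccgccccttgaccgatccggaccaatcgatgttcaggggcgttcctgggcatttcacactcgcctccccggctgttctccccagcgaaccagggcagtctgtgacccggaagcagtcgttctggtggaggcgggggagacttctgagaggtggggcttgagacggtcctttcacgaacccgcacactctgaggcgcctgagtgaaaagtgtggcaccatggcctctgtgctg
No letter is in capitals, because neither of the motifs searched on both strands matched: TGATGNAAN, the amino acid response element bound by C/EBP and ATF factors, and TGACGTCA, the cAMP response element. Of 32851 promoters in the table, 3.95% held the first motif and 1.79% the second, and the promoters of Sun2 and Pmm1 held neither. The table has promoters for 4 of the 6 genes. The lack of a match covers only these windows.

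The Atf4 probe checks the genotype labels. It was well above background on all 12 wild-type arrays, at 9.87 ± 0.20 (SD, n = 8) in log2 intensity in untreated wild type and 10.43 ± 0.21 (n = 4) with HCA. It was not above background on any of the 12 knockout arrays, where its measured means were 4.89 ± 0.18 and 4.76 ± 0.04. The measured log2 difference between genotypes was -4.98 without HCA (limma, adjusted p = 1.27e-20) and -5.67 with it (limma, adjusted p = 1.33e-18). Both include knockout readings that were not above background. Against the lowest signal above background on each array, Atf4 was at least 16.0-fold lower in untreated knockout neurons and at least 19-fold lower with HCA. These bounds carry no test. The genotype labels and the probe thus matched on each of the 24 arrays.

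Mean raw signal was 744.8 to 982.7 on chip 1 and 296.1 to 669.4 on chips 2 and 3, and 36.61% to 47.9% of probes were above background per array. Each of the 7 probes was read on 22 to 64 beads per array. Of 7 neuron markers 4 passed the filter, all 4 were above background on all 24 arrays and none passed the test between untreated genotypes (limma, with 0 at an unadjusted p under 0.05). Astrocyte markers passed as lower in the knockout in 3 of 3 tested, markers of dividing cells in 3 of 3, progenitor markers in 2 of 3, microglial in 2 of 3, oligodendrocyte-lineage in 2 of 3 and those of inhibitory neurons in 2 of 3, 1 of 3 excitatory markers passed as higher, and Snap25, Nefl, Neurod6, Gad2, Gfap, S100b, Olig2 and Pax6 stayed below the filter. With HCA 1 of 4 neuron markers, Tubb3, passed as lower in the knockout at -0.41 (limma, adjusted p = 0.0327), as did 3 of 3 astrocyte, 3 of 3 dividing-cell, 1 of 3 progenitor, 2 of 3 microglial, 1 of 3 oligodendrocyte-lineage and 2 of 3 inhibitory markers, and 2 of 3 excitatory markers passed as higher. The excitatory marker Slc17a7 ran the other way, at -0.29 without HCA and -0.70 with it (limma, adjusted p = 0.314 and 0.0566). Mbp of the oligodendrocyte lineage was also opposite to its list, at 0.24 and 0.08 (limma, adjusted p = 0.325 and 0.831). So was the microglial Aif1 with HCA, at 0.07 (limma, adjusted p = 0.851). For the mean HCA response 3 markers passed, all lower with HCA: Fezf2 (excitatory) at -0.40, Slc1a3 (astrocyte) at -0.34 and Olig1 (oligodendrocyte lineage) at -0.52 (limma, adjusted p = 0.014, 0.0197 and 0.0197). For unequal HCA response 1 marker passed, Hes5 (progenitor) at 1.55 (limma, adjusted p = 0.0163). Across all genes 11.3% passed without HCA, 19.4% with HCA, 0.72% for the mean HCA response and 0.274% for unequal response. The summed astrocyte signal on the linear scale was 2630 to 3765 in untreated wild type and 1756 to 3277 in untreated knockout, against 2681 to 3213 and 1670 to 2066 with HCA. The summed signal of dividing-cell markers was 1517 to 2548 and 927 to 2069 without HCA, and 1705 to 2052 and 880 to 1076 with it. That of the microglial markers was low, at 181 to 350 in untreated wild type and 117 to 246 in untreated knockout. None of the 3 microglial markers was above background on all arrays. The part of these cells in the values below was not tested, and in bulk RNA fewer cells of a type and less RNA per cell cannot be told apart.

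**Figure D1:**
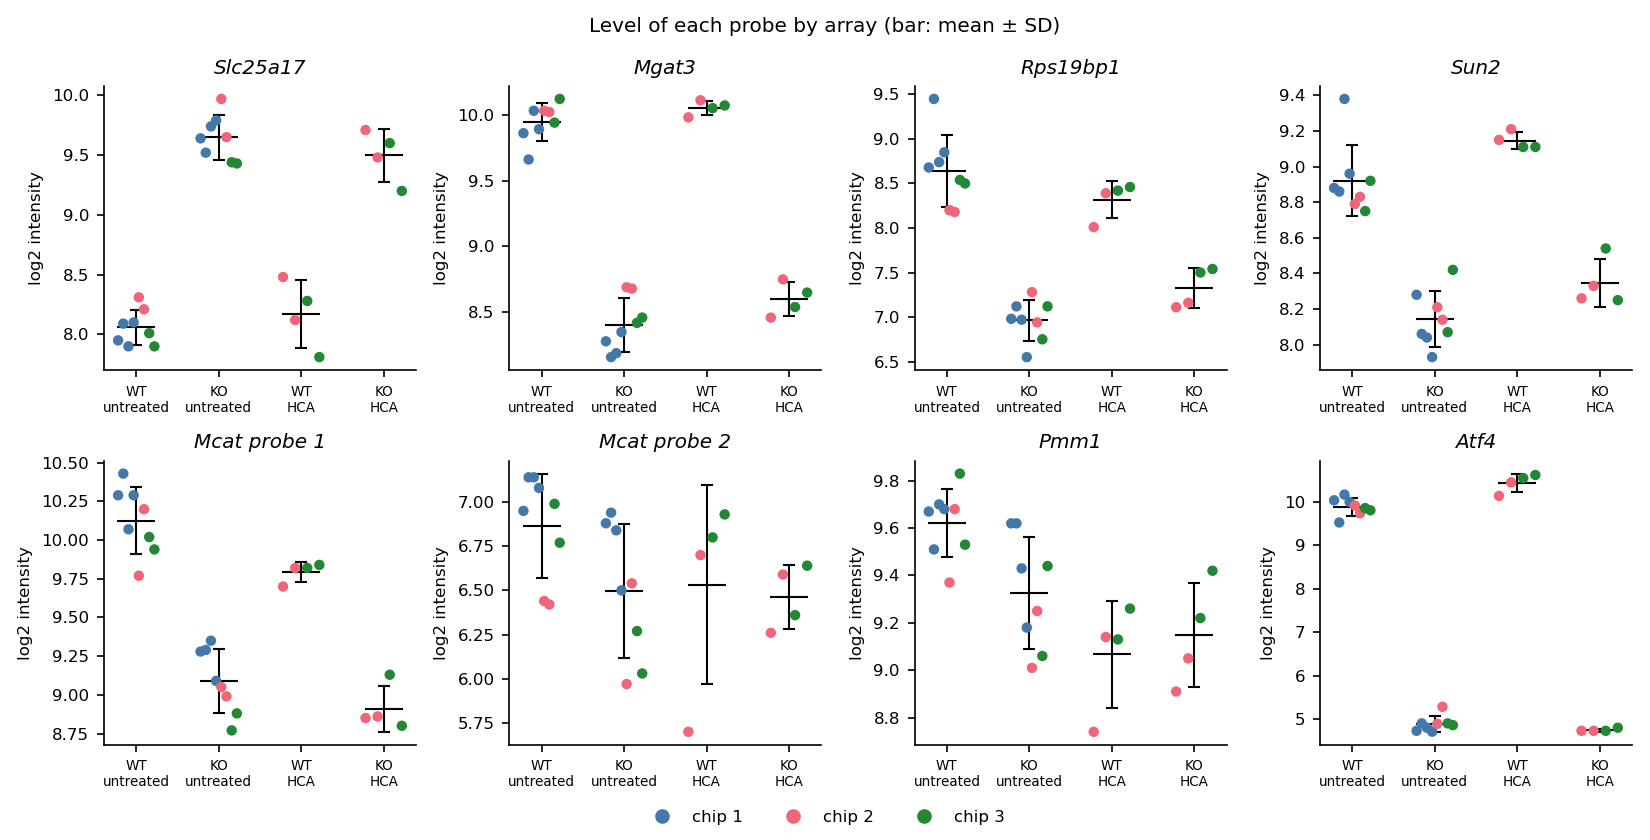
Normalised log2 intensity (vertical axes, each with its own range) of the 7 probes and of Atf4 in wild-type (WT) and Atf4 knockout (KO) neurons, untreated or with HCA; each point is an array coloured by chip, and bars give the mean ± SD (n = 8 untreated, n = 4 HCA). Slc25a17 sits higher in every knockout array than in any wild-type array, Mgat3, Rps19bp1, Sun2 and Mcat probe 1 sit lower, and Mcat probe 2 and Pmm1 overlap.

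Slc25a17 encodes a carrier in the peroxisomal membrane that exchanges cofactors such as coenzyme A and adenine nucleotides. Its log2 intensity (probe 2100369) in untreated wild type ranged from 7.90 to 8.31 with a median of 8.05, and in untreated knockout from 9.43 to 9.97 with a median of 9.645. With HCA the 4 wild-type arrays read 8.48, 8.12, 8.28 and 7.81, and the 4 knockout arrays 9.71, 9.48, 9.60 and 9.20. Every knockout array was brighter than every wild-type array, whatever the treatment, and the treated and untreated arrays of a genotype overlapped. The knockout exceeded wild type by 1.59 ± 0.08 (SE) on the log2 scale without HCA, or 3.01-fold, and by 1.32 ± 0.11 with HCA, or 2.50-fold. Among the 6 genes it alone had more signal in untreated knockout neurons. In the raw signals of chip 1, before any normalisation, the gap was also plain, with 457.4 to 621.5 in wild type and 1512.5 to 1679.1 in knockout. Raw signals of chip 2 did not overlap between genotypes. On chip 3 they did, with 426.3 in wild-type HCA replicate 3 and 408 in untreated knockout replicate 8.

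No response of Slc25a17 to HCA was detected. Averaged over the genotypes on chips 2 and 3, the HCA response was -0.03 ± 0.09 on the log2 scale with a 95% interval of -0.22 to 0.16 (limma, adjusted p = 0.952). Taken separately, it was 0.07 in wild type and -0.13 in knockout. The other tested genes of peroxisome biogenesis and peroxisomal fat oxidation numbered 16, and none passed as higher in untreated knockout neurons, while 3 passed as lower: Scp2, a sterol carrier, by -0.34 ± 0.08 (limma, adjusted p = 0.00858), Pex19, a chaperone of peroxisomal membrane proteins, by -0.28 ± 0.07 (limma, adjusted p = 0.0146), and Pex7, an import receptor, by -0.44 ± 0.11 (limma, adjusted p = 0.0163). Across all genes, by their brightest probe, 11.3% passed that comparison, 5.17% as higher and 6.17% as lower. None of the 16 passed for HCA, against 0.72% of all genes, and the nearest was Pex2, part of the import machinery, at -0.26 ± 0.06 (limma, adjusted p = 0.0555).

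Mcat encodes the mitochondrial malonyl-CoA transferase that loads malonyl groups onto the acyl carrier protein for fatty acid synthesis inside mitochondria. The brighter of its probes (5910092, probe 1) read 9.77 to 10.43 in untreated wild type, with a median of 10.13, and 8.77 to 9.35 in untreated knockout, with a median of 9.07. With HCA it read 9.70, 9.82, 9.82 and 9.84 in wild type and 8.85, 8.86, 9.13 and 8.80 in knockout. The genotypes did not overlap on any chip or treatment. The knockout lay below wild type by a log2 difference of -1.04 ± 0.07 without HCA (2.05-fold lower) and -0.89 ± 0.10 with HCA (1.85-fold lower). The mean HCA response of this probe was -0.10 ± 0.07, with an interval of -0.25 to 0.06 (limma, adjusted p = 0.678).

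The dimmer Mcat probe (4560692, probe 2) did not give the same picture. It was above background on 20 of the 24 arrays, and read 6.42 to 7.14 in untreated wild type (median 6.97) and 5.97 to 6.94 in untreated knockout (median 6.52). With HCA its 4 wild-type values were 5.70, 6.70, 6.80 and 6.93 and its knockout values 6.26, 6.59, 6.36 and 6.64. The groups overlapped, and the genotype difference was -0.37 ± 0.13 without HCA and -0.07 ± 0.18 with it. Which transcripts each probe reads is not given in the sources used here. Of 4 other tested genes of mitochondrial fatty acid synthesis and lipoylation, Cbr4, a reductase of that pathway, passed as lower in untreated knockout at -0.24 ± 0.07 (limma, adjusted p = 0.0421), and the others did not pass: Lias, the lipoic acid synthase, at 0.11 ± 0.06 (limma, adjusted p = 0.212) and Mecr, the enoyl reductase, at 0.07 ± 0.07 (limma, adjusted p = 0.583) were the nearest. None of the 4 passed for HCA, where the nearest was Lipt2, a lipoyl transferase, at -0.13 ± 0.10 (limma, adjusted p = 0.701).

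Mgat3 encodes the Golgi enzyme that adds the bisecting N-acetylglucosamine to N-linked sugar chains, a modification abundant in brain. Its log2 intensity (probe 2260593) was 9.66 to 10.12 in untreated wild type with a median of 9.98, and 8.16 to 8.69 in untreated knockout with a median of 8.38. With HCA the wild-type arrays read 9.98, 10.11, 10.05 and 10.07, and the knockout arrays 8.46, 8.75, 8.54 and 8.65. The genotypes stood well apart on every chip, and HCA moved neither of them away from its untreated range except that 1 knockout array, at 8.75, was above the untreated knockout maximum. The log2 difference was -1.54 ± 0.06 without HCA and -1.45 ± 0.09 with it, or 2.91-fold and 2.73-fold lower in the knockout. The mean HCA response was 0.03 ± 0.06, with an interval of -0.10 to 0.16 (limma, adjusted p = 0.913), so that an average response of more than 0.16 on the log2 scale lies outside the interval. Of 8 other tested genes that trim or branch N-glycans, none passed for genotype without HCA or for HCA. Man2a2 and Man2a1, Golgi mannosidases, were nearest for genotype at 0.19 ± 0.09 and -0.18 ± 0.09 (limma, adjusted p = 0.199 and 0.217), and St6gal1, a sialyltransferase, for HCA at 0.12 ± 0.06 (limma, adjusted p = 0.461).

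Pmm1 encodes a phosphomannomutase, an enzyme family that makes mannose 1-phosphate for GDP-mannose. It had the smallest genotype difference of the 6 genes. Its log2 intensity (probe 6840112) was 9.37 to 9.83 in untreated wild type (median 9.67) and 9.01 to 9.62 in untreated knockout (median 9.34). With HCA it was 8.74, 9.14, 9.13 and 9.26 in wild type and 8.91, 9.05, 9.22 and 9.42 in knockout. The untreated genotypes overlapped, and all 4 treated wild-type arrays lay below the lowest untreated wild-type array. The genotype difference was -0.29 ± 0.09 without HCA and 0.08 ± 0.12 with it. Among 35 other settings and sets of arrays the untreated difference ranged from -0.41 to -0.21.

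Averaged over treatments on chips 2 and 3, the genotype difference of Pmm1 was -0.16, smaller in size than its mean HCA response of -0.29, the reverse of the other 5 genes. The HCA response was -0.53 ± 0.12 in wild type and -0.04 ± 0.12 in knockout, given without a test because the untreated arrays are shared with the difference that chose the gene. The mean response (SE 0.09), with an interval of -0.47 to -0.10, did not pass (limma, unadjusted p = 0.00497, adjusted p = 0.191). The difference between the genotypes in HCA response was 0.49 ± 0.17 and did not pass either (limma, unadjusted p = 0.0121, adjusted p = 0.513), and its untreated arrays too are shared with the genotype difference that chose the genes. Of 9 other tested genes of mannose activation, none passed for genotype without HCA or for HCA. Its sister enzyme Pmm2 was nearest for genotype, at 0.29 ± 0.10 (limma, adjusted p = 0.0594), and Gmds, which turns GDP-mannose toward GDP-fucose, was nearest for HCA at -0.26 ± 0.07 (limma, adjusted p = 0.148), before Alg2, a mannosyltransferase, at -0.12 ± 0.05 (limma, adjusted p = 0.408).

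Sun2 encodes a protein of the inner nuclear membrane that joins the nuclear lamina to the cytoskeleton as part of the LINC complex. Its log2 intensity (probe 2120091) was 8.75 to 9.38 in untreated wild type (median 8.87) and 7.93 to 8.42 in untreated knockout (median 8.11). With HCA it was 9.15, 9.21, 9.11 and 9.11 in wild type and 8.26, 8.33, 8.54 and 8.25 in knockout. All 12 knockout arrays were below all 12 wild-type arrays, and among wild-type arrays the 4 treated ones lay above 7 of the 8 untreated ones, replicate 3 being the exception at 9.38. The genotype difference was -0.78 ± 0.08 without HCA (1.715-fold lower) and -0.80 ± 0.12 with it (1.74-fold lower). The mean HCA response was 0.23 ± 0.06, with an interval of 0.09 to 0.36, and did not pass over all probes (limma, unadjusted p = 0.00252, adjusted p = 0.139). Of 8 other tested genes of the LINC complex and lamina, none passed for genotype without HCA or for HCA. Lbr, the lamin B receptor, was nearest for genotype at -0.23 ± 0.09 (limma, adjusted p = 0.102), and Tor1aip1, which binds lamins, for HCA at -0.17 ± 0.06 (limma, adjusted p = 0.279), before Lmnb1, lamin B1, at 0.20 ± 0.10 (limma, adjusted p = 0.508).

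Rps19bp1, the gene beside Atf4, encodes a small nucleolar protein that binds the ribosomal protein Rps19 and, in human cells, the deacetylase SIRT1. Its log2 intensity (probe 2480075) was 8.18 to 9.45 in untreated wild type (median 8.61) and 6.55 to 7.28 in untreated knockout (median 6.98). With HCA it was 8.01, 8.39, 8.42 and 8.46 in wild type and 7.11, 7.16, 7.50 and 7.54 in knockout. The genotypes did not overlap, but the wild-type arrays spread more than for the other non-overlapping probes, with an SD of 0.40 among the 8 untreated ones. The log2 difference was -1.68 ± 0.13 without HCA (3.20-fold lower) and -0.99 ± 0.19 with it (1.99-fold lower). The gap between treatments was uneven between chips. The difference was -1.08 without HCA and -1.06 with it on chip 2, and -1.59 and -0.92 on chip 3. Over chips 2 and 3 together, where all HCA arrays lay, the untreated difference was -1.33, and the test of unequal HCA response gave 0.34 ± 0.18 (limma, adjusted p = 0.766), with the shared untreated arrays named above. The mean HCA response was 0.14 ± 0.09, with an interval of -0.06 to 0.33 (limma, adjusted p = 0.634). Its known partners did not pass for genotype without HCA, Rps19 at -0.19 ± 0.10 (limma, adjusted p = 0.242) and Sirt1 at 0.14 ± 0.08 (limma, adjusted p = 0.264), nor for HCA (limma, adjusted p = 0.989 and 0.958).

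The lists of genes that work with the 6 showed no common direction. Without HCA the median genotype difference was -0.03 over the 16 peroxisomal genes, -0.0006 over the 8 N-glycan genes, 0.05 over the 8 nuclear envelope genes, 0.02 over the 4 mitochondrial genes and 0.05 over the 9 mannose genes, against 0.015 over all genes. An unadjusted p under 0.05 was found for 4, 0, 1, 1 and 1 of them. For the mean HCA response the medians were -0.01, 0.09, 0.02, -0.02 and -0.04, against -0.0033 over all genes, and 1, 0, 1, 0 and 2 genes had an unadjusted p under 0.05. Between genotypes with HCA the medians were 0.04, -0.10, -0.22, 0.17 and 0.19, against 0.027 over all genes. More genes of the lists passed in that comparison, as did all genes, at 19.4%. These were Pex3 (0.34), Pex11a (0.37) and Pex26 (0.30) as higher in the knockout and Pex19 (-0.39) and Scp2 (-0.44) as lower among the peroxisomal genes. Man2a1 (-0.56), Lmnb1 (-0.42) and Lbr (-0.455) were lower, and Sirt1 (0.40), Mecr (0.43), Lias (0.29) and Pmm2 (0.52) higher, all named after their values were seen.

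**Figure D2:**
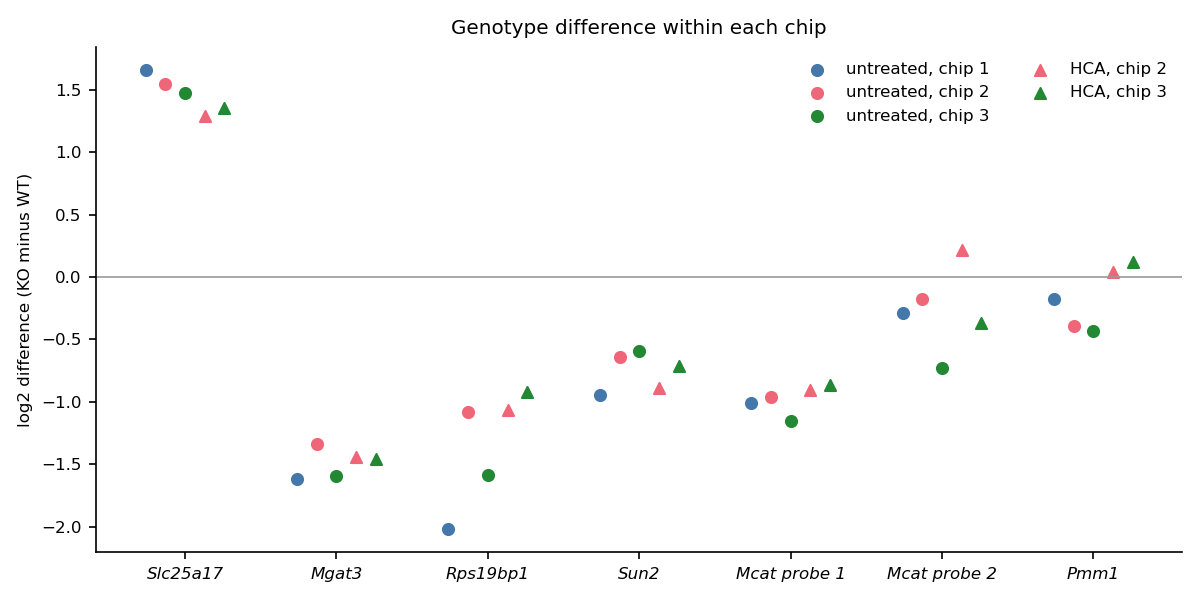
Knockout minus wild type (log2 difference) of each of the 7 probes within each chip, untreated (circles) on chips 1 to 3 and with HCA (triangles) on chips 2 and 3; each point is a difference of group means within a chip. The sign is the same in all 5 comparisons for 5 probes, and changes for Mcat probe 2 and Pmm1. For the 5 probes a lack of overlap between all knockout and all wild-type arrays fixes this in advance.

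Within chips the untreated difference of Slc25a17 was 1.66 on chip 1, 1.55 on chip 2 and 1.48 on chip 3, and that of Mgat3 was -1.62, -1.34 and -1.59. For Rps19bp1 it was -2.02, -1.08 and -1.59. For Sun2 it was -0.94, -0.64 and -0.59, and for Mcat probe 1 -1.01, -0.96 and -1.15. These 5 probes kept their sign on each chip, and with HCA too. Their knockout and wild-type arrays did not overlap, so the sign within each chip was fixed in advance. A test asked whether chip 1 differed from chips 2 and 3 in the untreated difference. It uses untreated arrays that were among those used to choose the genes, so it may depend on that choice. It passed for 0 of the 7 probes (limma), against 3.66% of all probes. Only 1 probe, Rps19bp1, had an unadjusted p under 0.05, with -0.69 ± 0.25 (limma, adjusted p = 0.152). Pmm1 differed by -0.18, -0.39 and -0.43 without HCA on the 3 chips and by 0.04 and 0.12 with HCA on chips 2 and 3.

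**Figure D3:**
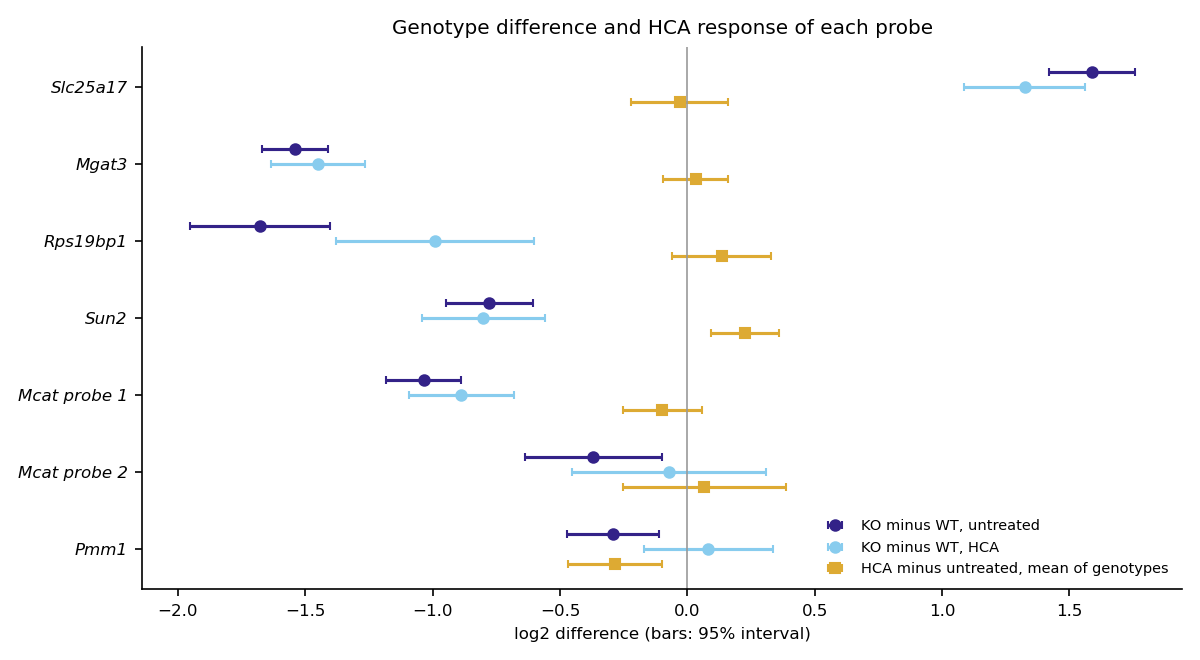
Knockout minus wild type without and with HCA (circles) and the HCA response averaged over the genotypes (squares), as log2 differences with 95% intervals, for each of the 7 probes. The genotype differences of Slc25a17, Mgat3, Rps19bp1, Sun2 and Mcat probe 1 lie far from 0, while the HCA responses lie between -0.29 and 0.23.

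Set against each other on chips 2 and 3, where the design is balanced, the genotype difference averaged over treatments was larger in size than the HCA response averaged over genotypes for 6 of the 7 probes. This was so for 71.8% of all 11852 probes, and the genotype difference is what the genes were chosen by. The ratio of the sizes was 47.0 for Slc25a17, 45.6 for Mgat3, 9.93 for Mcat probe 1, 8.575 for Rps19bp1, 3.10 for Sun2 and 3.90 for Mcat probe 2, and 0.576 for Pmm1. The 95% intervals of the HCA response included 0 for all but Sun2 and Pmm1, so the order of the larger ratios is uncertain. The mean HCA response passed for 0 of the 7 probes (limma), against 0.658% of all probes. An unadjusted p under 0.05 was found for 2 of the 7, Sun2 and Pmm1, and for 11.3% of all probes. For unequal HCA response between genotypes 0 of the 7 passed (limma), against 0.236% of all probes, with 1 of the 7, Pmm1, and 6.98% of all probes under an unadjusted p of 0.05. For Slc25a17 that difference was -0.19 ± 0.18 (limma, adjusted p = 0.878), for Mgat3 0.01 ± 0.12 (limma, adjusted p = 0.997), for Sun2 -0.19 ± 0.12 (limma, adjusted p = 0.832) and for Mcat probe 1 0.17 ± 0.15 (limma, adjusted p = 0.865). These tests of unequal response share their untreated arrays with the genotype difference that chose the genes, so they are not free of that choice. A missed threshold does not show equal responses, and the interval for Slc25a17 runs from -0.57 to 0.19.

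By the fit used here, on the same arrays that chose them, 6 of the 7 probes passed as different between untreated genotypes, against 10.3% of all probes, and 5 of 7 with HCA, against 18% of all probes. The untreated Pmm1 difference passed in 25 of 35 other settings. The 12 knockout and 12 wild-type arrays did not overlap for 5 of the 7 probes, against 0.329% of all probes. These counts describe how the genes were picked.

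**Figure D4:**
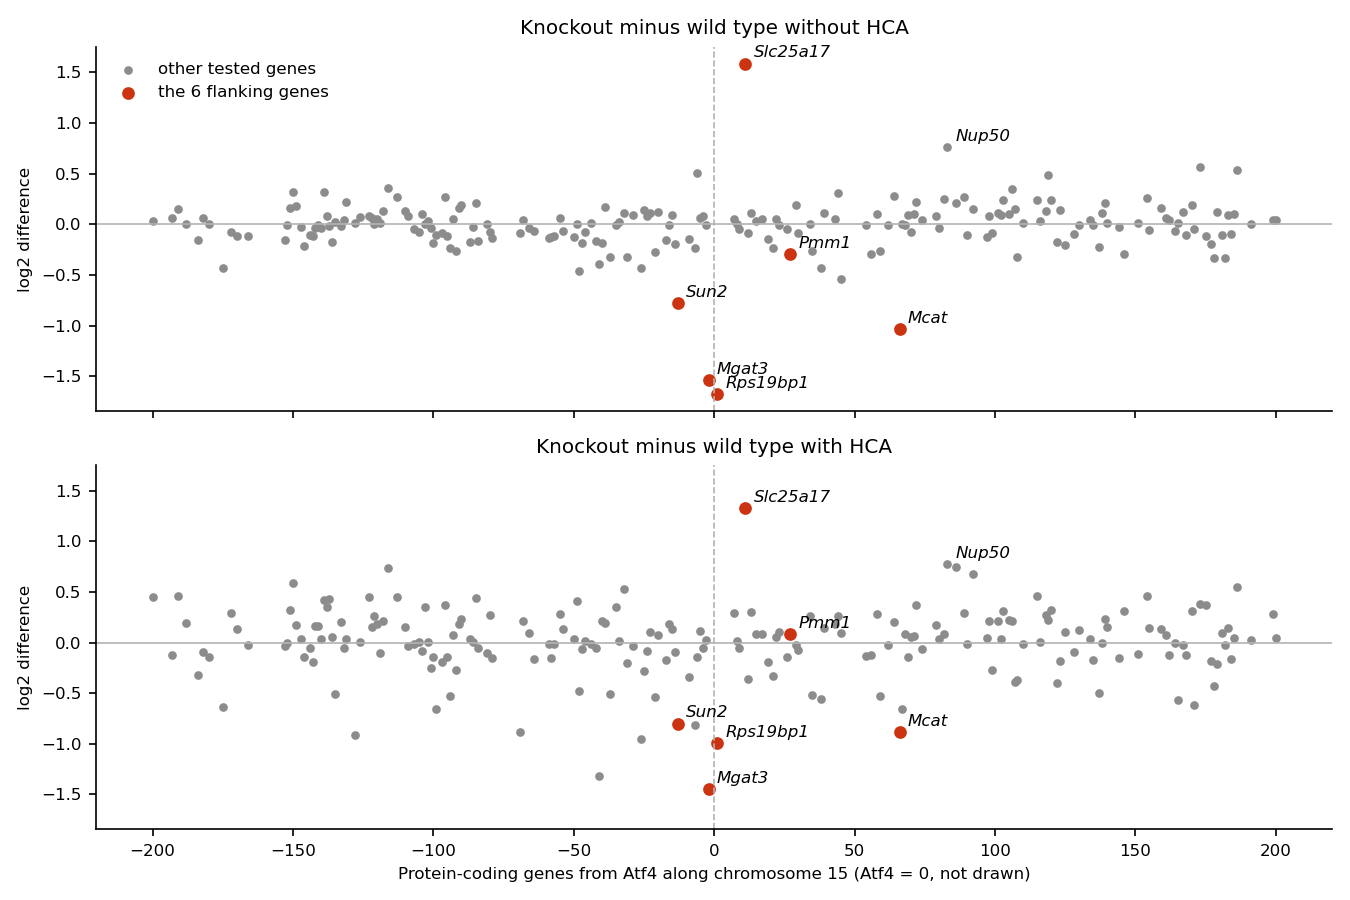
Knockout minus wild type (log2 difference) of each tested gene within 200 protein-coding genes of Atf4, by its brightest probe, without HCA (top) and with HCA (bottom). The horizontal axis is the place on chromosome 15, counted in protein-coding genes from Atf4, which is not drawn. The 6 genes stand among neighbours whose differences are mostly near 0.

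Among the tested genes, the 6 did not form an unbroken block. From Sun2 to Mcat the RefSeq order lists 79 protein-coding genes besides Atf4. Of these, 39 were tested and 33 are not among the 6. Their untreated differences ran from -0.54 to 0.51 with a median of -0.0039, and in 33 of 33 the genotypes overlapped. By their brightest probe, 0.388% of all genes had no overlap. The 6 were set apart for their differences, so small differences among the 33 were largely fixed in advance. In untreated neurons 4 of the 33 passed, namely Pdgfb at 0.51, Tef at -0.24, Cyp2d22 at -0.54 and Cyb5r3 at -0.27, named here after their values were seen. With HCA 6 of the 33 passed, against 19.4% of all genes, and Tef, a leucine zipper factor of circadian output, was with Cyb5r3 the gene that passed in both, at -0.33 and -0.52 with HCA. Across all genes 7.26% passed in both comparisons in 1 direction. Just at the edge of the choice, Pmm1 at -0.29 is inside while Cyb5r3 and Tef, with nearby sizes, are not, nor are Pdgfb and Cyp2d22, whose untreated differences were larger. Within 25 coding genes on each side of Atf4, 2 of 26 tested genes outside the 6 passed without HCA, or 7.69%, and within 200 genes 26 of 204, or 12.7%, against 11.3% of all genes. With the chosen genes counted in, 6 of 30, or 20%, passed within 25 genes and 32 of 210, or 15.2%, within 200. The 6 were chosen for such differences, so taking them out lowers the share and keeping them raises it.

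By their brightest probe, 34 of the 8755 genes had no overlap between the 12 knockout and the 12 wild-type arrays. On chromosome 15 these were Slc25a17, Mgat3, Rps19bp1, Sun2 and Mcat, which were chosen for such differences, the targeted Atf4 itself and Nup50. Nup50, a nuclear pore protein 83 coding genes from Atf4, was higher in the knockout by 0.76 without HCA and 0.78 with it. On chips 2 and 3 the genotype difference was larger with HCA than without it for 23 of the 27 such genes on other chromosomes, with a median growth of 0.59 on the log2 scale, and 11 of the 27 passed the test of unequal response. It was larger with HCA for 1 of the 5 chosen genes, Sun2, with a median growth of -0.17 and a range of -0.34 to 0.19, and 0 of the 5 passed. It was also larger with HCA for both remaining genes of chromosome 15, Atf4 by 0.84, which passed, and Nup50 by 0.17. The measured HCA response of Atf4 was 0.61 in wild type and -0.23 in knockout, where its probe was not above background on any array. Among all 8755 genes the genotype difference was larger with HCA for 50.5%. Across all genes 0.274% passed the test of unequal response. The untreated differences are among the values that chose the 5 genes, and a choice by large untreated differences can lower their growth with HCA. All 34 were picked by a lack of overlap, and the difference between these sets was not tested.

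The probes most like each gene across the 24 arrays, by Pearson correlation after removal of chip means, followed the genotype. These arrays share 2 genotypes, so the coefficients mostly restate the genotype difference and are given without a test. For Slc25a17 they were Amigo2, an adhesion molecule also on chromosome 15 (r = 0.94), Nup50 (0.92) and Oma1, a mitochondrial protease (0.92), and the most opposite was Mgat3 (-0.98). For Mgat3 they were Atf4 (0.99), the cationic amino acid transporter Slc7a3 (0.96) and the cytochrome oxidase subunit Cox6a2 (0.96). Rps19bp1 was most like Mcat (0.93), Mgat3 (0.93) and Atf4 (0.91), Sun2 most like Slc7a3 (0.95), Mgat3 (0.93) and Atf4 (0.93), and Mcat most like Atf4 (0.95), Mgat3 (0.95) and Cox6a2 (0.95). The most opposite probe of each of these 4 genes was that of Slc25a17. Pmm1 stood aside: its nearest were Mrps11, a mitochondrial ribosomal protein (0.87), Ppp1ca, a phosphatase subunit (0.86), and Acot7, an acyl-CoA thioesterase (0.85), its most opposite was the calcium channel Cacna1g (-0.90), and its correlation with Atf4 was 0.34. Once group means were removed as well, correlations between the 7 probes ran from -0.68 to 0.64, and that of Slc25a17 with Mgat3 was -0.39.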

How the data were processed

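Per the file headers, BeadStudio 1.5.1.3 averaged each probe's beads into a linear, unnormalized intensity, which the authors deposited for 24048 probes with a bead number and a detection score, a fraction from 0 to 1. The authors also deposited log2 values of 23983 probes, made with limma per the submitters' processing notes, in a version not given in the sources used here. Raw probes were named by matching their quantile-normalized log2 values to that matrix, which linked 23983 of 23983, and 20919 had 1 gene symbol. The raw table's 120 other columns were not used. RefSeq (GRCm38.p6) served for gene order and promoters.

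Signals were background-corrected by normexp (offset 16) with the background mean and SD read from the detection scores, quantile-normalized over the arrays and taken to log2. Probes with a score over 0.95 on at least 4 of 24 arrays were kept. Models were fitted with limma 3.58.1 in R 4.3.3 (lmFit, eBayes) with a term for chip: all 24 arrays for genotype, the 16 arrays of chips 2 and 3 for HCA and for the difference between genotypes in HCA response. P-values were adjusted by Benjamini-Hochberg over all 11852 probes, and a probe passed at an adjusted p under 0.05. Fits were tested on simulated data. A gene counted among many was represented by its brightest probe.

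Groups and chips came from the labels. No arrays were duplicates, and the number of arrays limits the precision. The genes, pathway lists and marker lists were chosen with earlier results of these data known. Named were the 6 genes, Atf4, for each gene the 3 most alike and the 1 most opposite probe, neighbours within 25 genes that passed in both genotype comparisons, and up to 3 genes per pathway list with the smallest p for genotype without HCA or for the mean HCA response. Other neighbours, pathway genes of the comparison with HCA and markers were named after their values were seen. Alternatives covered background correction, normalization, dim-probe filter, unit, chip term, arrays, weights, replicate number and left-out arrays.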

Additional observations from a re-analysis of the deposited data

Results flagged for a closer look

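In 3 of the 28 sets of values checked (7 probes in 4 groups), 1 array stood apart from the rest of its group by Dixon's criterion, which chance alone meets in about 1 of 20 groups. Rps19bp1 read 8.01 in wild-type HCA replicate 1, against 8.39 to 8.46 in the other 3. On the same array, Mcat probe 1 read 9.70 (9.7036), against 9.82 to 9.84 in the other 3. Sun2 read 9.38 in untreated wild-type replicate 3, against 8.75 to 8.96 in the other 7.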

How the results depend on the processing

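Of 1240 values of the 7 probes given again under alternatives, 1215 held in direction or moved by less than the replicate spread, and 11 untested values moved by more. Of the 1240 values, 35 had the opposite sign, 14 of them in results that were tested, and none of the 35 passed the threshold; causes were not tested. Fewer probes passed when arrays were median-centred instead of quantile-normalized: 164 without HCA (47 higher and 117 lower, against 573 and 653), 448 with HCA (26 and 422, against 1071 and 1060), 4 for the mean HCA response (4 and 0, against 26 and 52), 11 for unequal HCA response (0 and 11, against 2 and 26) and 12 for chip 1 against chips 2 and 3 (against 434). That setting shifted the median of all probes to 0.07, -0.03, -0.02, -0.16 and -0.12. Under it the Mgat3 mean HCA response was -0.0017, the unequal responses of Mgat3 and Mcat probe 1 were -0.21 and -0.0502, and the chip terms of the Mcat probes were -0.18 and -0.0104, each of the opposite sign to the values without it and none past the threshold. Without a chip term 188, 830 and 48 probes passed for genotype without HCA, with HCA and the mean HCA response. With limma's inferred background 159 passed for the mean HCA response and 46 for unequal response, and with the deposited log2 values 128 and 44. The mean HCA response passed for 46 probes with no dim-probe filter and 123 with array weights. The other set of arrays gave 2137 without HCA and 57 for unequal response. With replicate number as a block 683 probes passed without HCA, 1612 with HCA and 30 for unequal response; HCA responses could not be estimated with it. Same-numbered arrays correlated from -0.23 to 0.20, with 0.10 to 0.20 for the HCA arrays, and the numbers were not used to pair the samples. On chips 2 and 3 a group has 2 arrays per chip, which deviate from their mean in mirror image. The check therefore could not exclude pairing.

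Leaving out 1 array gave 742 to 1488, 1562 to 2316, 39 to 64 and 21 to 28 probes in the 4 comparisons. The first fell to 742 without untreated wild-type replicate 8 and 769 without untreated knockout replicate 5. The mean HCA count was 39 to 48, from 78, without any of untreated wild-type replicates 5 to 8, untreated knockout replicate 5, wild-type HCA replicates 2 and 3, or knockout HCA replicates 2 and 3. Leaving out 1 array, the Slc25a17 mean HCA response ran from -0.076 to 0.0107 and the unequal response of Mgat3 from -0.0316 to 0.0761. For none of the 7 probes did the mean HCA response or the unequal response pass in any alternative run. Without background correction the untreated differences shrank to 1.29 for Slc25a17, -1.29 for Mgat3, -1.15 for Rps19bp1 and -0.61 for Sun2.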
